A study of Mus musculus with 3 samples.

Results

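Semaphorins and plexins, the guidance ligands of heart cells and their main receptors, were followed across cell classes and genotypes in single-cell RNA sequencing of the mouse heart. The members were taken by symbol from the 32285 genes counted: every gene whose symbol starts with Sema and a digit, with Plxn or with Plxdc. This gave 34 genes, of which 20 were semaphorins, 9 were plexins, 3 were antisense genes at the Plxna4 locus and 2 were plexin domain-containing genes (Plxdc1 and Plxdc2). No measured value was used to choose them. Of the 34, 32 reached at least 10 CPM (a gene's UMIs per 1000000 UMIs of a cell class) in some class of some library and 20 reached at least 100 CPM. Sema4g and Plxna3 stayed below 10 CPM in every class and library.

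Hearts of male C57/B6J mice were used, and 1 library of total heart cells was made for each of 3 genotypes. WT mice were wild type. Myh6-R404Q mice carry a point mutation in Myh6, the alpha myosin motor that drives contraction of mouse cardiomyocytes. Prkag2-p.R299Q mice carry a point mutation in a regulatory gamma subunit of the kinase AMPK, an energy sensor that also bears on glycogen storage. Both mutations are studied as models of hypertrophic cardiomyopathy, a thickening of the heart muscle, and the series is about fibrosis and immune cells in these hearts. The sources used here give no age, no zygosity of the mutations and no number of animals per library. With 1 library per genotype no difference between genotypes has a replicate check and no test was made. The 95% intervals given cover counting error only. A point mutation need not alter a count of transcript 3′ ends, so counts do not check the genotype labels.

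WT had 18033 barcodes, Myh6-R404Q 12662 and Prkag2-p.R299Q 7951, with medians of 1559, 2043 and 2537 UMIs (unique molecular identifiers, 1 per captured transcript). The Myh6-R404Q matrix as deposited also repeats every barcode of the other libraries, so its library was taken by elimination as the barcodes that stand in no other matrix. Between 28 and 51 barcode sequences were shared by any pair of libraries. After filters and removal of doublets 14831, 10555 and 6840 cells were kept, in 22 clusters. From marker genes, 15 classes were named, of which 9 had 200 or more cells of every genotype and entered the genotype comparisons. The members were kept out of the genes used for clustering. Free RNA was present: the 11 cardiomyocyte markers summed to between 5183 and 9928 CPM in fibroblast-like cells and to between 27020 and 29212 CPM in endothelial-like cells.

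Semaphorins are secreted or membrane-bound proteins first known for steering growing axons, and they also shape vessels, the epicardium and immune responses. Class 3 semaphorins are secreted and act mostly through neuropilins, the co-receptors Nrp1 and Nrp2, paired with A-type plexins, although Sema3e can bind Plxnd1 directly. Classes 4 to 6 are transmembrane proteins that bind plexins without a neuropilin, as Sema4d binds Plxnb1 and Sema6a binds Plxna2 and Plxna4. Sema7a is held on the membrane by a lipid anchor and binds Plxnc1 and integrins. Plexins carry an intracellular domain that inactivates small GTPases of the Ras and Rap family, and B-type plexins also activate RhoA, so that a bound cell pulls in its processes. In the heart, semaphorins are known for outflow tract septation (Sema3c), patterning of the pulmonary veins (Sema3d) and of sympathetic nerves (Sema3a).

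Of the class 3 genes, 4 lie on mouse chromosome 5 in mm10, all on the plus strand, within 5.35 Mb between 12383385 and 17730268. They are Sema3d, Sema3a, Sema3e and Sema3c, and the sequence before the start site is shown for the first 3. The window of Sema3c overlaps an annotated exon and is not shown. Each window holds the 250 bases before the start that RefSeq gives on build GRCm38.p6, 5′ to 3′ on the plus strand. Capitals mark a GC box, spelled GGGCGG or its reverse complement CCGCCC.
Sema3d, chr5:12382916-12383165: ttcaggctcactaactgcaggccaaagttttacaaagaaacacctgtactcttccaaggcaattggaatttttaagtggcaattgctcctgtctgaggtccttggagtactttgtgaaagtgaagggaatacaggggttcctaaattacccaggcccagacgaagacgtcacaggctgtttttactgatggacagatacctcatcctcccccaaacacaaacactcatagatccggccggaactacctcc
Sema3a, chr5:13396534-13396783: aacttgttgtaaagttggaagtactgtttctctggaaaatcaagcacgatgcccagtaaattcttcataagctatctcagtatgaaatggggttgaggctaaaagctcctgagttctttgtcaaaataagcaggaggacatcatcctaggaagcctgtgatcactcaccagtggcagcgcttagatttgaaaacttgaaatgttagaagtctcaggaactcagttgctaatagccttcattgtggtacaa
Sema3e, chr5:14025026-14025275: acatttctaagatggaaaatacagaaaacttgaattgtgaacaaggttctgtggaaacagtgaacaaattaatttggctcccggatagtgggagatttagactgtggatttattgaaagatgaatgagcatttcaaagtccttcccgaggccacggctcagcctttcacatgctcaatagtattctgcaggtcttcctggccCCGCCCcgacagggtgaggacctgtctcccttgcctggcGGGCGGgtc
The window of Sema3e holds 2 GC boxes and those of Sema3d and Sema3a hold 0. A GC box stood in 32.7% of all 32851 promoter windows of this length, and in 25 of the 35 windows of the 24 members that had one. CACGTG (an E-box, which reads the same on both strands) and TATAAA or its reverse complement TTTATA stood in 0 of the 3 windows shown, against 6.02% and 12.4% of all windows. Of the 35 member windows, 2 held CACGTG and 0 held TATAAA or TTTATA. The bases G and C made up 46.8%, 40.8% and 48% of the windows of Sema3d, Sema3a and Sema3e, where the median window had 52.4%. The Sema3a window lies within the longer Sema3a gene of the GENCODE annotation (13125414 to 13602565), before a start site inside it, and overlaps no annotated exon. The start sites used in heart cells were not measured here.

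The levels of the members were spread unevenly over cell classes, and the same class was highest in all 3 libraries for 17 of the 34. Of these 17, 7 were highest in mesothelial-like cells, which cover the outer surface of the heart (Sema3c, Sema3d, Sema3e, Plxna4, Plxna4os2, Plxna4os3 and Plxnb2). Lymphatic endothelial-like cells were highest for 4 (Sema3a, Sema3f, Sema6a and Sema6b), pericyte-like cells for 4 (Sema5a, Sema6d, Plxna1 and Plxdc1) and endothelial-like cells for 2 (Sema7a and Plxnd1). The other 17 changed their highest class with the library. Classes were ranked where a library had at least 50 cells of them, so small classes entered in some libraries only, and over the classes with at least 50 cells in every library 24 members kept their highest class. Transcripts were counted at their 3′ ends and without a length correction, so levels are compared for 1 gene across classes or libraries, never between genes.

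**Figure D1:**
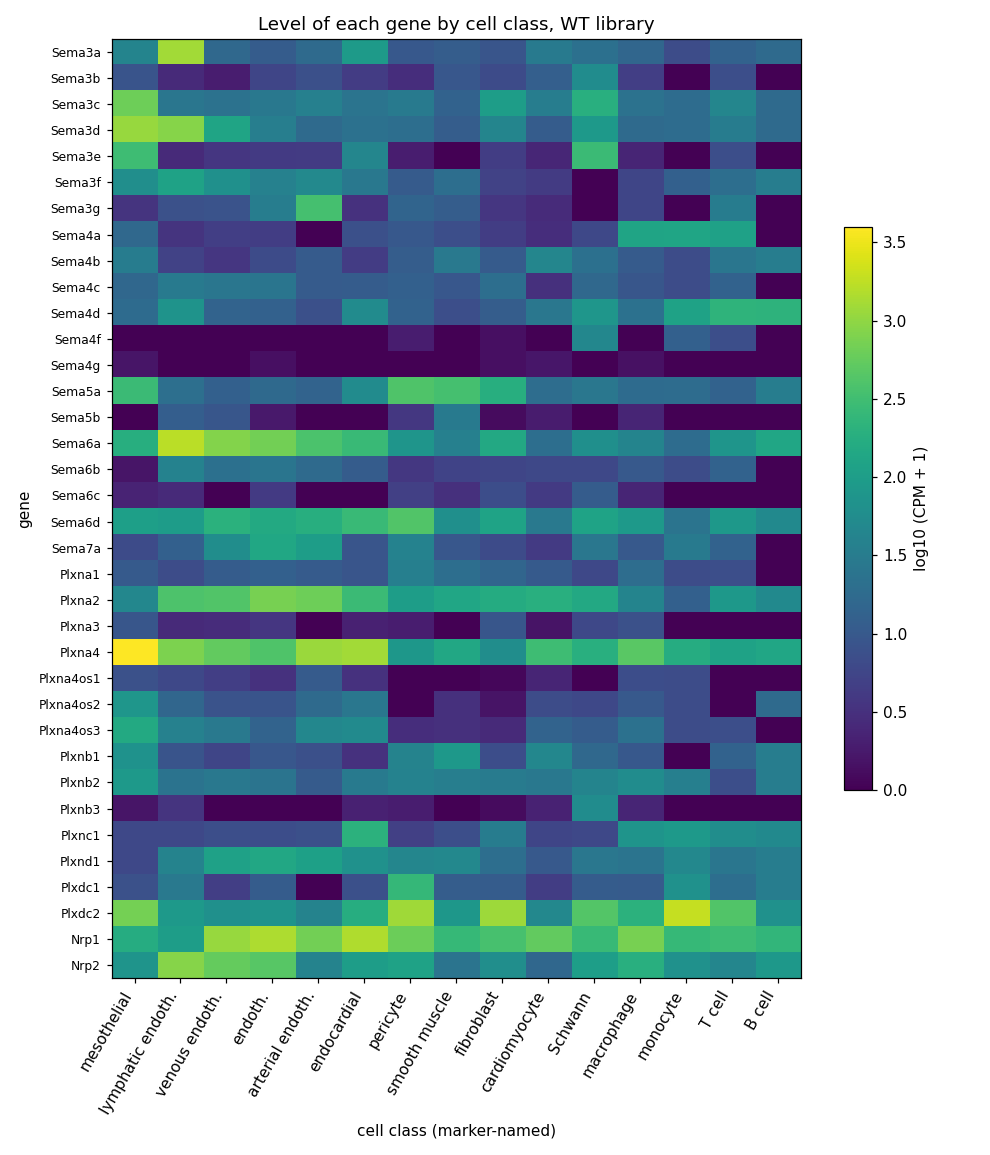
Level of each of the 34 genes and of the co-receptors Nrp1 and Nrp2 (rows) in 15 cell classes of the WT library (columns), as the color of log10 of CPM plus 1. Each row is read on its own: Plxna4, Sema3c and Sema3d are brightest in the mesothelial column, Sema3a and Sema6a in the lymphatic column, and Sema3g in the arterial column.

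Mesothelial-like cells held the highest level of the secreted ligands Sema3c, Sema3d and Sema3e and of the receptor gene Plxna4. Plxna4 (chromosome 6, 32144268 to 32588192, minus strand), a receptor for class 3 ligands with neuropilins and for class 6 ligands without them, was at 3857 CPM (3762 to 3955) in WT, against 3834 (3772 to 3896) in Myh6-R404Q, with 3850 (3761 to 3940) in Prkag2-p.R299Q mesothelial-like cells. The 3 libraries overlapped in their intervals, and the ratio to WT was 0.994 (0.965 to 1.02) for Myh6-R404Q and 0.998 (0.965 to 1.03) for Prkag2-p.R299Q. For thinned values, cells with at least 1000 UMIs were thinned to 1000 UMIs each and shallower cells were left out. Thinned and unthinned shares are therefore of unlike sets of cells. Of thinned mesothelial-like cells, 93.3%, 92.9% and 94.1% in WT, Myh6-R404Q and Prkag2-p.R299Q had a Plxna4 UMI, against 5.13%, 6.66% and 4.07% of fibroblast-like cells. The unthinned Plxna4 shares were 94.7%, 94.9% and 92.3% at median depths of 1745, 2515 and 2814 UMIs, and 8.22%, 11.3% and 8.02% in fibroblast-like cells at 1536, 1906 and 2527 UMIs. A small mesothelial-like cluster of 58 Myh6-R404Q cells stood lower, at 681 CPM of Plxna4 against 3869 CPM in the main cluster of that library. Endocardial-like cells, the inner lining of the heart, had the next highest Plxna4, at 1250, 1424 and 1629 CPM in WT, Myh6-R404Q and Prkag2-p.R299Q. There the Plxna4 ratio to WT was 1.14 (1.06 to 1.23) and 1.30 (1.19 to 1.42).

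Sema3d (chromosome 5, 12383385 to 12588948), a secreted ligand, was at 1113, 861 and 1005 CPM in WT, Myh6-R404Q and Prkag2-p.R299Q mesothelial-like cells, and at 880, 657 and 843 CPM in lymphatic endothelial-like cells. In both classes Sema3d was lowest in Myh6-R404Q, with ratios to WT of 0.773 (0.730 to 0.819) and 0.747 (0.667 to 0.834), which are less than the 1.5-fold used here to call a difference. In Prkag2-p.R299Q the Sema3d ratios were 0.903 (0.845 to 0.964) and 0.958 (0.856 to 1.07). Sema3c (chromosome 5, 17574281 to 17730268), a ligand of the outflow tract, was at 646, 735 and 736 CPM in mesothelial-like cells. Its ratio was 1.14 in both mutants (Myh6-R404Q 1.06 to 1.22, Prkag2-p.R299Q 1.05 to 1.24). In the small mesothelial-like Myh6-R404Q cluster the level was 470 CPM for Sema3d and 423 CPM for Sema3c, against 865 and 739 CPM in the main cluster of that library.

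Sema3e (chromosome 5, 14025276 to 14256689), the ligand of Plxnd1, was at 298 CPM (272 to 326) in WT, against 132 (120 to 144) in Myh6-R404Q, with 199.8 (180 to 221) in Prkag2-p.R299Q mesothelial-like cells. No intervals overlapped, with WT highest and Myh6-R404Q lowest. The Sema3e ratio was 0.442 (0.389 to 0.502) for Myh6-R404Q against WT, 0.671 (0.584 to 0.770) for Prkag2-p.R299Q against WT and 1.52 (1.32 to 1.74) for Prkag2-p.R299Q against Myh6-R404Q. The ratio of Prkag2-p.R299Q to WT missed 1.5-fold and was not called, and the call of Prkag2-p.R299Q against Myh6-R404Q was lost in 5 of 10 alternative settings. In thinned cells, 22.5% (19.4 to 25.8), 11.8% (10.0 to 13.7) and 14.8% (11.7 to 18.4) of mesothelial-like cells had a Sema3e UMI, and 0.397%, 0.112% and 0.191% of fibroblast-like cells. The unthinned Sema3e shares in mesothelial-like cells were 34.1%, 22.5% and 32.2%. Schwann-like cells of WT, the glia of cardiac nerves, had Sema3e at 279.9 CPM (211 to 364), an interval that overlaps that of WT mesothelial-like cells. The 11 fibroblast markers summed to 2715, 4326 and 3086 CPM in the mesothelial-like class, highest where Sema3e was lowest, while the 10 mesothelial markers summed to 8521, 8596 and 9222 CPM. The part of fibroblast RNA in the Sema3e difference was not tested. In fibroblast-like cells Sema3e was at 3.50, 1.36 and 2.04 CPM.

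Lymphatic endothelial-like cells held Sema3a and Sema6a, and Sema3a differed most between genotypes there. Sema3a (chromosome 5, 13125414 to 13602565), a secreted repellent that acts through Nrp1 and A-type plexins, was at 1249 CPM (1186 to 1314) in WT, against 603 (547 to 664) in Myh6-R404Q, with 741 (670 to 818) in Prkag2-p.R299Q. Both mutant libraries lay below the WT interval, with Sema3a ratios of 0.483 (0.432 to 0.539) and 0.593 (0.530 to 0.664). Set against each other, Prkag2-p.R299Q had 1.23 times (1.07 to 1.41) the Sema3a of Myh6-R404Q. In thinned cells, 50.9% (46.8 to 55.0), 36.6% (31.5 to 42.0) and 40.4% (34.2 to 46.9) had a Sema3a UMI. The unthinned Sema3a shares were 53.9%, 48.8% and 52.7% at median depths of 1271, 1687 and 1743 UMIs. Fibroblast-like cells had Sema3a in 0.794%, 0.300% and 0.144% of thinned cells. All 8 lymphatic markers were detected in the class in each library and summed to 7351, 8394 and 9178 CPM. The cardiomyocyte markers summed to 12204, 9520 and 6433 CPM in the same cells. The part of free RNA or of the purity of the class in the Sema3a ratios was not tested. The class was 1 cluster at either clustering resolution.

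Sema6a (chromosome 18, 47235598 to 47368870, minus strand), a transmembrane ligand of Plxna2 and Plxna4, was at 1682, 1421 and 1663 CPM in WT, Myh6-R404Q and Prkag2-p.R299Q lymphatic endothelial-like cells. Venous endothelial-like cells followed with 852, 1013 and 994 CPM of Sema6a and endothelial-like cells, mostly of small vessels, with 681, 893 and 821 CPM. Against WT, the Sema6a ratio of Myh6-R404Q was 0.845 (0.782 to 0.912) in lymphatic and 1.31 (1.23 to 1.40) in endothelial-like cells, and that of Prkag2-p.R299Q was 0.989 (0.913 to 1.07) and 1.21 (1.12 to 1.30). None of these Sema6a ratios reached 1.5-fold. Sema3f, a ligand of Nrp2, was at 119, 113 and 135 CPM in lymphatic endothelial-like cells, with ratios of 0.951 (0.712 to 1.26) and 1.14 (0.847 to 1.53). Sema6b, another class 6 ligand, was at 38.7, 34.7 and 33.9 CPM there, with intervals that hold a ratio of 1 in every comparison.

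The co-receptor that binds class 3 ligands beside plexins differed by vessel type. Nrp2 was highest in lymphatic endothelial-like cells in every library, at 894, 1124 and 1108 CPM in WT, Myh6-R404Q and Prkag2-p.R299Q. Nrp1 was at 98.5, 50.6 and 32 CPM in the same lymphatic cells, its lowest class in every library, and at 1435, 1527 and 1677 CPM in endothelial-like cells. The Nrp2 ratio in lymphatic endothelial-like cells was 1.26 (1.14 to 1.38) for Myh6-R404Q and 1.24 (1.12 to 1.37) for Prkag2-p.R299Q. In endothelial-like cells Nrp2 was at 462, 733 and 771 CPM, which was 1.59 (1.47 to 1.71) and 1.67 (1.53 to 1.82) times the WT level. With cells thinned to 1000 UMIs these log2 ratios were 0.54 and 0.58, and both calls were lost. The call of Myh6-R404Q was also lost with at least 1000 UMIs per barcode.

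Blood vessel classes held the receptors Plxna2 and Plxnd1 and the ligands Sema3g and Sema7a. Plxna2 (chromosome 1, 194618218 to 194816869, plus strand), a receptor of Sema6a and class 3 ligands, was at 729, 671 and 748 CPM in endothelial-like cells of the WT, Myh6-R404Q and Prkag2-p.R299Q libraries. Arterial endothelial-like cells had Plxna2 at 635 and 751 CPM in WT and Myh6-R404Q, the libraries with at least 50 such cells. The Plxna2 ratio in endothelial-like cells was 0.921 (0.861 to 0.985) and 1.03 (0.949 to 1.11). Sema3g, a ligand of arteries, was at 347 CPM (284 to 419) in WT and 261 CPM (178 to 371) in Myh6-R404Q arterial endothelial-like cells, with overlapping intervals, and at 32.5, 10.2 and 12.5 CPM in endothelial-like cells. Arterial endothelial-like cells numbered 228, 75 and 40, too few in the mutants for the comparison between genotypes.

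Plxnd1 (chromosome 6, 115954811 to 115995005, minus strand), the vascular receptor of Sema3e, was at 145, 196 and 203 CPM in endothelial-like cells and at 112, 149 and 177 CPM in venous endothelial-like cells of the WT, Myh6-R404Q and Prkag2-p.R299Q libraries. WT was the lowest library in both classes. The Plxnd1 ratio in endothelial-like cells was 1.35 (1.18 to 1.56) for Myh6-R404Q and 1.41 (1.2 to 1.65) for Prkag2-p.R299Q, and in venous endothelial-like cells of Prkag2-p.R299Q it was 1.58 (1.17 to 2.11). In Myh6-R404Q, Plxnd1 was 1.94 times (1.28 to 2.93) the WT level in lymphatic endothelial-like cells, 1.55 times (1.13 to 2.14) in endocardial-like cells and 1.67 times (1.13 to 2.46) in macrophage-like cells, where the call was lost in 5 of 10 alternative settings. The 12 endothelial markers, whose class has the highest Plxnd1, summed to 3096, 3583 and 2967 CPM in lymphatic, 4310, 4626 and 4508 CPM in endocardial-like and 1396, 967 and 690 CPM in macrophage-like cells. They were thus highest in Myh6-R404Q in the lymphatic and endocardial classes, as Plxnd1 was, and lower there than in WT in the macrophage class. The part of endothelial RNA in the Plxnd1 ratios was not tested. Sema7a, the lipid-anchored ligand, was highest in endothelial-like cells at 139, 97.4 and 131 CPM. Its ratio there was 0.700 (0.591 to 0.829) and 0.942 (0.780 to 1.13), below the size that was called.

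Endocardial-like cells were a further site of receptors. Plxnc1 (chromosome 10, 94790866 to 94944835, minus strand), the receptor of Sema7a, was at 203, 208 and 233 CPM in WT, Myh6-R404Q and Prkag2-p.R299Q endocardial-like cells, with ratios of 1.02 (0.847 to 1.24) and 1.15 (0.911 to 1.45). Sema4d (chromosome 13, 51685529 to 51793747, minus strand), the ligand of Plxnb1 known from T cells, was at 54.4 CPM (40.2 to 71.9) in WT, against 102 (85.6 to 120) in Myh6-R404Q, with 100.5 (75.9 to 131) in Prkag2-p.R299Q endocardial-like cells. Both mutants lay above the WT interval, with Sema4d ratios of 1.87 (1.34 to 2.64) and 1.85 (1.24 to 2.77), which rest on 49 WT, 141 Myh6-R404Q and 56 Prkag2-p.R299Q UMIs. The 9 endocardial markers summed to 8827, 8951 and 9728 CPM in the class, and the 9 T cell markers to 4.44, 5.05 and 5.38 CPM, with 3, 6 and 2 of them above 0 and Cd3d and Trac at 0 in every library. The 8 monocyte markers summed to 133, 165 and 239 CPM and the 8 B cell markers to 2355, 2669 and 2837 CPM in endocardial-like cells, both higher in the mutants as Sema4d was. Of these, Chil3 and Pax5 were at 0 in every library, Ly6c2 in both mutants, and Ms4a1 and Cd79b in WT and Prkag2-p.R299Q, and the part of such cells in the Sema4d ratios was not tested. Sema4d was highest in T cell-like cells of WT and Myh6-R404Q, at 220 and 204 CPM, with B cell-like cells at 214 and 149 CPM and monocyte-like cells at 118, 176 and 134 CPM. Sema3a in endocardial-like cells was at 89.9, 137 and 87.9 CPM, which was 1.52 times (1.17 to 2.0) the WT level in Myh6-R404Q, opposite in direction to lymphatic cells. That Sema3a call was lost in 6 of 10 alternative settings, and the level passed the guard of 1/5 of the lymphatic level in Myh6-R404Q but not in the other libraries. Between the mutants, Sema3a in endocardial-like cells was called lower in Prkag2-p.R299Q than in Myh6-R404Q, a call kept in 6 of 10 alternative settings.

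**Figure D2:**
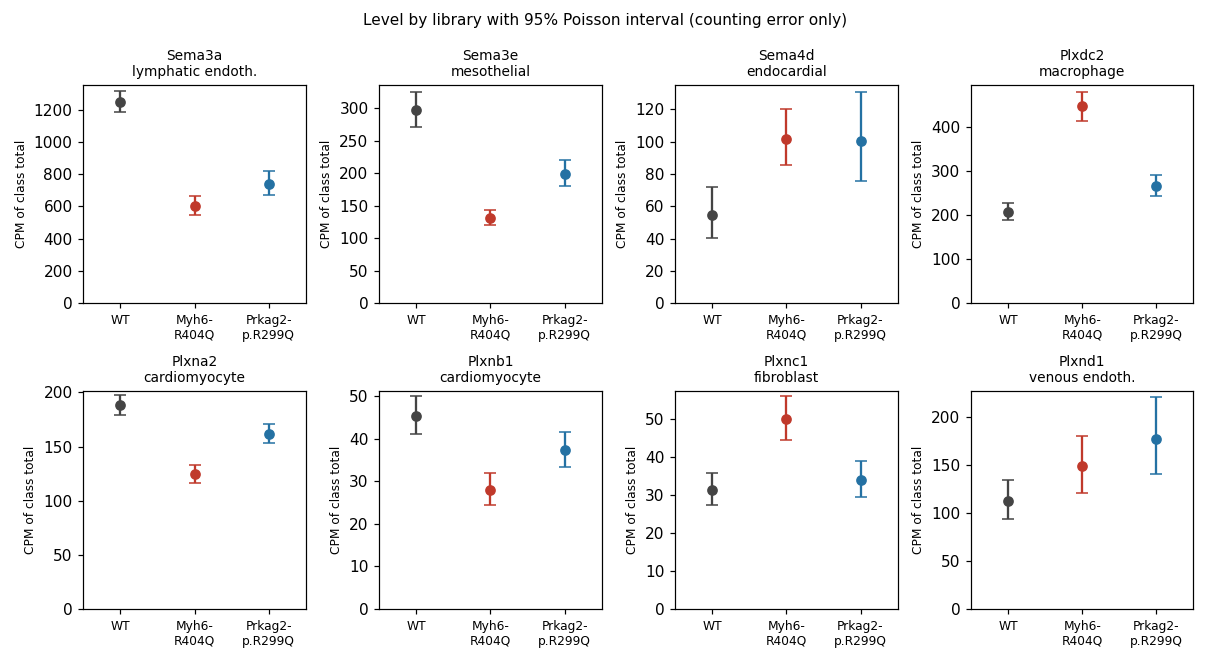
Level in CPM of 8 gene and class pairs by library (points, WT in grey, Myh6-R404Q in red, Prkag2-p.R299Q in blue), with 95% Poisson intervals as bars and each axis starting at 0. Sema3a in lymphatic cells, at 1249, 603 and 741 CPM, and Sema3e in mesothelial cells, at 298, 132 and 199.8 CPM, are highest in WT, and Sema4d in endocardial cells is lowest in WT.

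Pericyte-like cells, the contractile cells around small vessels, held the transmembrane ligands Sema5a and Sema6d. Sema6d, which binds Plxna1 and Plxna4, was at 414, 419 and 435 CPM in WT, Myh6-R404Q and Prkag2-p.R299Q pericyte-like cells and at 276, 338 and 379 CPM in endocardial-like cells. Sema5a was at 410, 431 and 455 CPM in pericyte-like cells and at 283, 355 and 328 CPM in mesothelial-like cells. For both genes the intervals of the pericyte levels overlapped between all 3 libraries, with Sema6d ratios of 1.01 (0.877 to 1.17) and 1.05 (0.906 to 1.22) and Sema5a ratios of 1.05 (0.911 to 1.21) and 1.11 (0.958 to 1.28). In endocardial-like cells Sema6d was 1.22 times (1.05 to 1.43) and 1.37 times (1.14 to 1.65) the WT level. Plxdc1, a receptor-like gene known from tumor vessels, was at 246, 283 and 206 CPM in pericyte-like cells, with ratios of 1.15 (0.959 to 1.38) and 0.837 (0.681 to 1.03). Plxna1 was also highest in pericyte-like cells, at 34.7, 39.2 and 36.1 CPM, with a ratio of 1.13 (0.682 to 1.86) for Myh6-R404Q and 1.04 (0.607 to 1.76) for Prkag2-p.R299Q.

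Plxdc2 (chromosome 2, 16356304 to 16755839, plus strand), a transmembrane receptor with a plexin-like domain, was spread over mural, fibroblast and myeloid classes. It was at 1221, 1593 and 1529 CPM in pericyte-like cells and at 1169, 1546 and 1404 CPM in fibroblast-like cells of the WT, Myh6-R404Q and Prkag2-p.R299Q libraries. In both classes WT was lowest, with Plxdc2 ratios between 1.2 (1.17 to 1.24) and 1.32 (1.28 to 1.36). In macrophage-like cells Plxdc2 was at 207 CPM (188 to 227) in WT, against 447 (415 to 481) in Myh6-R404Q, with 267 (244 to 292) in Prkag2-p.R299Q. Myh6-R404Q was highest, with a Plxdc2 ratio of 2.16 (1.92 to 2.43) against WT, while Prkag2-p.R299Q had 0.597 times (0.531 to 0.671) the level of Myh6-R404Q. The Plxdc2 level passed the guard of 1/5 of its highest class in Myh6-R404Q but not in the other libraries. With no doublets removed the log2 ratio between the mutants was -0.40, and with doublets removed at the expected rate it was -0.48. That call was lost in both settings. In thinned macrophage-like cells, 13.6%, 25.4% and 15.7% had a Plxdc2 UMI, against 6.33%, 5.70% and 4.50% of endothelial-like cells. The unthinned Plxdc2 shares were 18.3%, 34.6% and 26.7%, and 7.31%, 7.70% and 8.42% in endothelial-like cells.

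Monocyte-like cells had Plxdc2 at 1938, 798 and 1555 CPM, in 102, 119 and 59 cells, so that the order of libraries there was the reverse of that in macrophage-like cells. Within macrophage-like cells the 8 monocyte markers summed to 92.6, 72.8 and 62.3 CPM, with Ly6c2 at 0 in every library, the 11 fibroblast markers to 1101, 1188 and 909 CPM and the 11 macrophage markers to 11251, 8620 and 11005 CPM. The part of these other cells in the Plxdc2 difference was not tested. At the finer clustering both macrophage clusters showed the same order for Myh6-R404Q and WT, with Plxdc2 at 437 against 183 CPM in the larger and at 539 against 270 CPM in the smaller cluster.

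Among macrophage genes, Plxnc1 was at 71.0, 116 and 104 CPM in WT, Myh6-R404Q and Prkag2-p.R299Q macrophage-like cells, a ratio of 1.63 (1.31 to 2.03) and 1.46 (1.17 to 1.82). Sema4a, an immune semaphorin that co-stimulates T cells, was at 124, 147 and 144 CPM, with ratios of 1.18 (0.987 to 1.41) and 1.16 (0.971 to 1.38). Sema4a was highest in myeloid and T cell classes, where monocyte-like cells had 130, 142 and 103 CPM, T cell-like cells of WT and Myh6-R404Q had 113 and 102 CPM, and mesothelial-like cells, the next class, had 15.6, 8.74 and 12.9 CPM. Plxna4 was at 477, 541 and 531 CPM in macrophage-like cells, less than 1/5 of its mesothelial level, so its ratios there were not read.

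Cardiomyocyte-like cells held Plxna2 and the class B receptor Plxnb1. Plxna2 was at 188 CPM (179 to 197) in WT, against 124 (117 to 133) in Myh6-R404Q, with 162 (154 to 170) in Prkag2-p.R299Q cardiomyocyte-like cells. Plxnb1 (chromosome 9, 109095389 to 109119917, plus strand), the receptor of Sema4d, was at 45.3 CPM (41.1 to 49.9), 27.9 (24.3 to 31.9) and 37.3 (33.4 to 41.5). For both genes Myh6-R404Q was lowest, with ratios to WT of 0.661 (0.610 to 0.716) for Plxna2 and 0.616 (0.520 to 0.728) for Plxnb1. In Prkag2-p.R299Q the ratios were 0.860 (0.801 to 0.923) for Plxna2 and 0.823 (0.711 to 0.953) for Plxnb1. The cardiomyocyte markers summed to 65016, 56896 and 61371 CPM in the class, lowest in Myh6-R404Q as well, and their part in these ratios was not tested. The median gene of the class lay 0.11 higher on the log2 scale in Myh6-R404Q than in WT under median-of-ratios scaling, and relative to it the log2 ratio of Plxna2 was -0.71 and that of Plxnb1 -0.81. With no doublets removed the log2 ratio was -0.58 for Plxna2 and -0.53 for Plxnb1, and neither was called. With doublets removed at the expected rate the log2 ratio of Plxna2 was -0.48, and its call was lost. The class was made up unlike in the libraries: at the finer clustering 1 cluster had 934 cells from WT but 210 from Myh6-R404Q and only 166 from Prkag2-p.R299Q, while 675, 820 and 700 lay in a different one. With the makeup of clusters held fixed the log2 ratio of Plxna2 was -0.54, and with that of the finer clusters fixed the log2 ratio of Plxnb1 was -0.51, and these calls were lost. Within the finer clusters of 675 and 934 WT cells, Plxna2 was at 127 against 188 CPM and at 112 against 189 CPM in Myh6-R404Q and WT. In thinned cells 17.0%, 11.5% and 12.3% had a Plxna2 UMI, while unthinned shares were 43.2%, 40.2% and 50.5% at median depths of 3612, 5099 and 6542 UMIs.

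Other class 4 genes and B-type plexins were measured at lower levels. Sema4b was at 43.5, 41.2 and 42.2 CPM in cardiomyocyte-like cells, with ratios of 0.947 (0.814 to 1.10) for Myh6-R404Q and 0.971 (0.841 to 1.12) for Prkag2-p.R299Q. Plxnb2, a widely expressed receptor of class 4 ligands, was at 83.7, 93.6 and 102 CPM in mesothelial-like cells, with ratios of 1.12 (0.915 to 1.37) and 1.22 (0.975 to 1.54). Smooth muscle-like cells had the highest Plxnb1 of WT and Myh6-R404Q, at 80.9 and 62.4 CPM. Plxnb1 was at 67.4, 45.8 and 66.2 CPM in mesothelial-like cells, a ratio of 0.679 (0.531 to 0.870) for Myh6-R404Q and 0.982 (0.752 to 1.28) for Prkag2-p.R299Q. Sema4c was at 28.6, 36.2 and 18.8 CPM in lymphatic endothelial-like cells, its highest class in WT and Myh6-R404Q, while in Prkag2-p.R299Q venous endothelial-like cells were highest. It was at 34.2 CPM in Myh6-R404Q against 19.5 CPM in Prkag2-p.R299Q endothelial-like cells, a ratio of 0.571 (0.349 to 0.904) for Sema4c, and at 22.6 against 14 CPM in mesothelial-like cells, a ratio of 0.619 (0.383 to 0.968). Sema4f and Plxnb3 were seen above 20 CPM in Schwann-like cells of WT, at 45.8 and 56.0 CPM from 9 and 11 UMIs, and Sema4f also in T cell-like cells of Myh6-R404Q, at 24.0 CPM.

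The remaining ligands were low. Sema3b was at 56.0 CPM in WT Schwann-like cells, from 11 UMIs, and at 11.4, 11.8 and 7.75 CPM in cardiomyocyte-like cells, where Prkag2-p.R299Q had 0.656 times (0.474 to 0.906) the Sema3b of Myh6-R404Q, a call lost in 6 of 10 alternative settings. Sema5b was highest in smooth muscle-like cells, at 29.8 CPM in WT and 48.6 CPM in Myh6-R404Q, from 14 and 7 UMIs. Sema6c was at 6.02, 11 and 9.69 CPM in fibroblast-like cells, a ratio of 1.83 (1.23 to 2.76) in Myh6-R404Q from 65 against 43 UMIs. In endothelial-like cells Sema6b was at 23.7, 14.5 and 12.5 CPM, a ratio of 0.612 (0.390 to 0.944) for Myh6-R404Q and 0.525 (0.283 to 0.922) for Prkag2-p.R299Q. Sema3f in Myh6-R404Q was 0.487 times (0.249 to 0.937) the WT level in endocardial-like and 0.570 times (0.346 to 0.911) in venous endothelial-like cells, from 18 against 24 and from 25 against 70 UMIs. These intervals are wide, and the calls rest on few UMIs.

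The antisense genes Plxna4os1, Plxna4os2 and Plxna4os3 lie inside the Plxna4 locus on the opposite strand. Plxna4os3 (32303829 to 32316614) was at 152, 191 and 177 CPM and Plxna4os2 (32451170 to 32454750) at 78.0, 66.8 and 63.5 CPM in mesothelial-like cells of the WT, Myh6-R404Q and Prkag2-p.R299Q libraries, the class where Plxna4 was highest too. No source used here says whether counting used strand, so reads of Plxna4 and its antisense genes cannot be told apart. Plxna4os3 was 1.62 times (1.05 to 2.49) the WT level in Prkag2-p.R299Q endocardial-like cells, a call lost in 4 of 9 alternative settings, and Plxna4os2 0.424 times (0.186 to 0.905) the Myh6-R404Q level in Prkag2-p.R299Q macrophage-like cells, from 11 against 23 UMIs. Plxna4os1 reached at most 15.8 CPM, from 2 UMIs.

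The genotype comparisons asked which of these genes differed within a cell class. A ratio was read where a gene had at least 10 CPM in either library, 20 UMIs over both and, as a guard against free RNA, at least 1/5 of the level in its highest class. It was called where it was at least 1.5-fold with an interval that does not hold 1. Sema4f, Sema4g, Sema5b, Plxna3 and Plxnb3 passed in no class of any comparison. In Myh6-R404Q against WT, 9 of 94 member and class pairs were called higher (9.57%), where 5.37% of all gene and class pairs were, and 7 were called lower (7.45%), where 3.30% of all were. In Prkag2-p.R299Q against WT, 3 of 87 pairs were called higher (3.45%) and 2 lower (2.30%), beside 4.08% and 3.32% of all pairs. In Prkag2-p.R299Q against Myh6-R404Q, 1 of 94 pairs was called higher (1.06%) and 6 lower (6.38%), beside 2.63% and 3.61% of all pairs. The pairs read were those that passed through the higher library, pairs of 1 gene in several classes are not independent, and the shares were not tested. The median log2 ratio over member pairs was 0.11, 0.038 and -0.0077 in the 3 comparisons, and over all pairs 0.048, 0.015 and -0.034. With cells thinned to 1000 UMIs, the calls of Plxnc1, Sema3b, Sema3f, Sema4c, Plxna4os2 and Plxna4os3 were lost, as were those of Plxnd1 and Sema3a in endocardial-like, Plxnd1 in macrophage-like and Sema4d in Prkag2-p.R299Q endocardial-like cells and that of Sema3e between the mutants. Outside the members, both Nrp2 calls in endothelial-like cells were lost in thinned cells too. Thinned sums leave out cells under 1000 UMIs, so they rest on fewer cells as well as fewer UMIs. The comparisons share libraries, so their calls are not independent of each other.

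**Figure D3:**
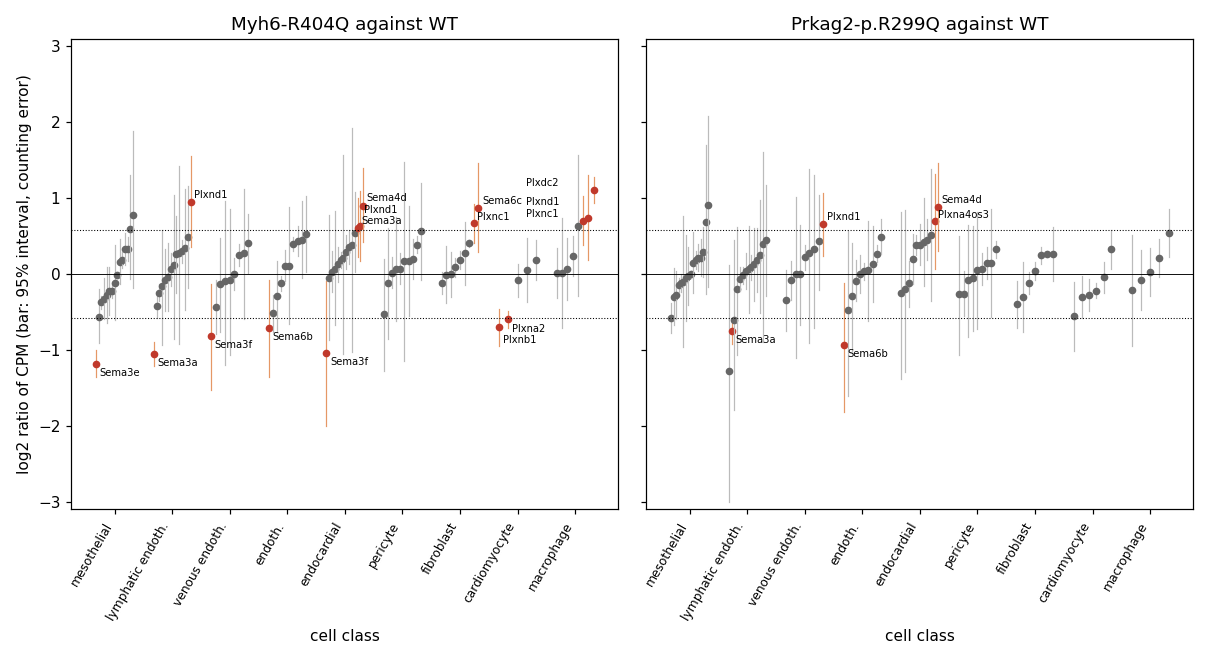
Log2 ratio of CPM against WT for each member read in a class (points, 94 pairs in Myh6-R404Q on the left and 87 in Prkag2-p.R299Q on the right), ordered within each of 9 classes, with 95% counting intervals as bars, trimmed at 3 in either direction. Named red points were called, 16 on the left and 5 on the right, and dotted lines mark 1.5-fold.

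Called pairs of Myh6-R404Q spanned 8 of the 9 classes, all but pericyte-like cells. Macrophage-like cells had 3 pairs called higher of 8 read (Plxdc2, Plxnc1 and Plxnd1) and 0 called lower, where 7.13% of all genes read in that class were called higher. Endocardial-like cells had 3 called higher of 14 (Sema4d, Plxnd1 and Sema3a) and 1 lower (Sema3f), where 5.10% and 3.25% of all genes were. Cardiomyocyte-like cells had 0 called higher and 2 called lower of 5 (Plxna2 and Plxnb1), where 9.32% and 2.68% of all genes were. Sema3a in lymphatic endothelial-like cells, Sema4d in endocardial-like cells and Sema6b in endothelial-like cells were called in the same direction in both mutants. These mutants were set against the same WT library, so 1 WT value enters both calls. The share of all genes called alike in both mutants was not counted.

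Fibroblast-like cells, which lay down most cardiac collagen, fell into 3 clusters in which these genes had unlike levels. Cluster 1 had Kcnip1 and Col8a1 among its leading genes, cluster 2 had Pi16 and Has2, and cluster 10 had Fbn2 and Shisa9. Sema3c was at 53.7, 43.3 and 49.7 CPM in cluster 1 of the WT, Myh6-R404Q and Prkag2-p.R299Q libraries, and at 138, 235 and 219 CPM in cluster 2. Within cluster 2 both mutants lay above the WT interval of Sema3c (126 to 151), while over all fibroblast-like cells Sema3c was at 101, 111 and 119 CPM. Cluster 2 made up 2335 of 4307 fibroblast-like cells in WT, 977 of 2882 in Myh6-R404Q and 837 of 2231 in Prkag2-p.R299Q, so the class level mixes unlike shares of clusters. At the finer clustering the cluster with Pi16 and Has2 had 1017, 591 and 679 cells in WT, Myh6-R404Q and Prkag2-p.R299Q. Another fibroblast-like cluster, with Tnc and Ccl2 among its leading genes, had 1671, 506 and 275. The part of unlike makeup within cluster 2 in its Sema3c levels was not tested. Sema3d was highest in cluster 10, at 116, 128 and 228 CPM, where Prkag2-p.R299Q lay above the other intervals. Plxna4 there was at 114, 160 and 59.1 CPM, with Prkag2-p.R299Q lowest.

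Plxnc1 in fibroblast-like cells was at 31.4, 49.8 and 33.8 CPM in WT, Myh6-R404Q and Prkag2-p.R299Q, a ratio of 1.59 (1.33 to 1.90) in Myh6-R404Q. It was highest in Myh6-R404Q in each fibroblast-like cluster, at 52.4 CPM of Plxnc1 against 34.5 in cluster 1, 33.1 against 25.4 in cluster 2 and 105 against 50.8 in cluster 10. Only in clusters 1 and 10 did the intervals of these 2 libraries not overlap. The 11 macrophage markers, whose class also has Plxnc1, summed to 191, 144 and 135 CPM in fibroblast-like cells. The 9 endocardial markers summed to 240, 220.5 and 223 CPM there, and the 8 monocyte markers to 405, 290 and 383 CPM. The part of such RNA in the Plxnc1 ratio was not tested. Sema5a was at 218, 229 and 253 CPM in cluster 1 and at 140, 136 and 148 CPM in cluster 2, and Plxdc2 was lowest in cluster 10, at 681, 790 and 873 CPM. Over the class, the Sema5a ratio was 1.14 (1.05 to 1.23) for Myh6-R404Q and 1.19 (1.10 to 1.28) for Prkag2-p.R299Q.

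**Figure D4:**
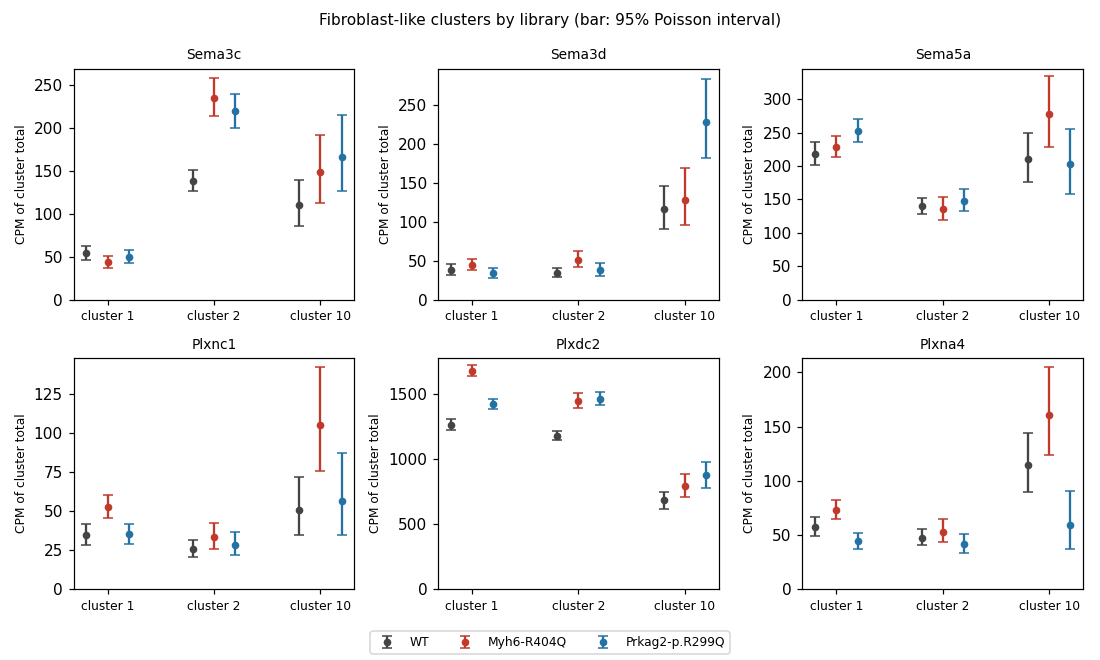
Level in CPM of 6 genes in the 3 fibroblast-like clusters by library (points, with 95% Poisson intervals), each axis starting at 0. Sema3c is higher in cluster 2 than in cluster 1 in every library, at 138, 235 and 219 against 53.7, 43.3 and 49.7 CPM, and Plxdc2 is lowest in cluster 10.

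Genes that act with these ligands and receptors were taken from 4 lists of 59 genes: the co-receptors, other receptors and partners, regulators of small GTPases, and the MICAL and collapsin response mediator proteins that carry plexin signals to the cytoskeleton. Of 296 gene and class pairs of these lists in Myh6-R404Q against WT, 8 were called higher (2.70%) and 13 lower (4.39%), beside 5.37% and 3.30% of all pairs. In Prkag2-p.R299Q against WT 6 of 290 were called higher (2.07%) and 5 lower (1.72%), beside 4.08% and 3.32% of all, and in Prkag2-p.R299Q against Myh6-R404Q 7 of 284 were called higher (2.46%) and 4 lower (1.41%), beside 2.63% and 3.61%. Endothelial-like cells had Micall2, a MICAL-like protein of cell junctions, at 2.09 times (1.34 to 3.32) the WT level in Myh6-R404Q and 2.04 times (1.21 to 3.43) in Prkag2-p.R299Q. Gipc1, an adaptor that binds neuropilin, was 2.30 times (1.19 to 4.63) and the pseudokinase Ptk7 1.98 times (1.26 to 3.15) the WT level in Myh6-R404Q pericyte-like cells. Ptk7 was 1.85 times (1.15 to 3.00) the WT level in Prkag2-p.R299Q pericyte-like cells. Micall1, a relative of Micall2, was called lower in 5 classes of Myh6-R404Q, with a ratio of 0.463 (0.258 to 0.793) in venous endothelial-like cells, and in lymphatic endothelial-like cells of Prkag2-p.R299Q it was 0.487 times (0.335 to 0.692) the WT level. Trem2, a receptor reported to pair with plexin A1, was 0.400 times (0.280 to 0.569) the WT level in Myh6-R404Q mesothelial-like cells.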

How the data were processed

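Counts of UMIs per gene and cell were deposited as 1 matrix per genotype. Per the submitters' processing notes, Cell Ranger 7.0.1 and the mouse build mm10 were used, and per the labels' protocols the libraries were made with a 3′ kit from collagenase-digested heart. Whether introns were counted is not given in the sources used here. Free RNA was not removed.

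From the deposited counts, barcodes with at least 500 UMIs, 300 genes and at most 20% mitochondrial UMIs were kept, and doublets called by the Scrublet method in scanpy 1.11.5 (17.8% of barcodes in WT, 16.6% in Myh6-R404Q, 14.0% in Prkag2-p.R299Q) were removed. Cells were clustered on 2000 variable genes without the members, with 30 principal components, 20 neighbours and Leiden resolution 0.8 (leidenalg 0.10.2), and named from marker lists where at least 3 markers were detected. UMIs were summed per class and library. Exact 95% intervals (Poisson for CPM, conditional binomial for ratios, Clopper-Pearson for shares, scipy 1.17.1) cover counting error only. The calling of ratios was also run on simulated counts of fibroblast-like and lymphatic endothelial-like cells, for genes of at least 50 CPM. Those counts held counting error only and no variation between animals, so they lend the calls no support beyond counting error. With 1 library per genotype no test was made.

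The members and lists were chosen with earlier results of these data known. Every member was named with its level, with ratios given where called or in its highest compared class, and of the pathway lists Nrp1, Nrp2 and up to 3 of the most changed called ratios per direction. For Sema3a between the mutants in endocardial-like cells, the levels and the call were given without the ratio. Motifs were searched on both strands of RefSeq promoter windows, and 24 of the members had one.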

Additional observations from a re-analysis of the deposited data

Results flagged for a closer look

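Sema3a in the Myh6-R404Q library was above WT in endocardial-like and below WT in lymphatic endothelial-like cells. Its log2 ratio to WT was higher by 1.66 in endocardial-like than in lymphatic endothelial-like cells. The levels were 89.9 CPM in WT and 137 CPM in Myh6-R404Q endocardial-like cells, and 1249 and 603 CPM in lymphatic endothelial-like cells. The endocardial level reached 1/5 of the lymphatic level in Myh6-R404Q only, where the lymphatic level was lowest, and its call was lost in 6 of 10 alternative settings. With 1 library per genotype this difference was not tested.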

How the results depend on the processing

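Over 149 named ratios and 1439 alternative values, 1382 stayed within the counting interval of the reported ratio, 57 moved outside it and 0 reversed, and over the 30 ratios called (28 of members and 2 of Nrp2) 224 calls were kept and 70 were lost. For Myh6-R404Q against WT, the 9 pairs called higher became 1 with the matrix as deposited, which also holds the other libraries, and 14 with no guard against free RNA, and the 7 called lower became 1, 15 and, at a minimum of 50 CPM, 4. For Prkag2-p.R299Q against WT, the 3 called higher became 5 in cells thinned to 1000 UMIs and 5 with no guard, and the 2 called lower became 4 with at least 1000 UMIs per barcode, 4 in thinned cells, 1 at 50 CPM and 10 with no guard. For Prkag2-p.R299Q against Myh6-R404Q, the 1 called higher became 2 with no doublets removed, 3 with at least 1000 UMIs, 0 as deposited, 2 with median-of-ratios scaling, 2 with no minimum CPM and 4 with no guard, and the 6 called lower became 3 in thinned cells, 0 as deposited, 2 at 50 CPM and 16 with no guard. Apart from the mixed matrix and the guard, which change the cells or genes read, the cause was not tested. The calls of Sema3e in mesothelial-like and Sema4d in endocardial-like cells of Myh6-R404Q were kept in 10 of 10 settings, and those of Sema3a in lymphatic and Plxnd1 in venous endothelial-like cells of Prkag2-p.R299Q in 9 of 9. The setting with makeup fixed over finer clusters and the ranking over classes of at least 50 cells in every library were chosen after seeing the data. No paired analysis was possible because each genotype has 1 library.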
